A study of Mus musculus with 12 samples.

Results

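The nuclear-encoded genes of the mitochondrial respiratory chain were examined by complex in LSK cells of WT and Fancg KO mice. The members were all genes of the expression table whose names follow the naming pattern of the subunits (Nduf for complex I, Sdh for complex II, Uqcr for complex III, Cox4 to Cox8 for complex IV, Atp5 for complex V) together with Cycs, which encodes cytochrome c. This gave 86 of 35999 genes, 37 in complex I, 4 in complex II, 8 in complex III, 19 in complex IV, 17 in complex V and 1 for cytochrome c. The names set the complex. Ndufa4, which carries a complex I name but is now regarded as a subunit of complex IV, was left with complex I. Cyc1, the cytochrome c1 of complex III, and the subunits encoded by mitochondrial DNA fall outside the names and were described as separate lists.

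The stem cells and multipotent progenitors of the blood lie among the LSK cells of the bone marrow, which lack lineage markers and carry Sca-1 and KIT. There were 12 libraries, 1 per mouse, of which 6 were labelled WT and 6 Fancg KO. The KO mice are null for Fancg, a component of the Fanconi anemia core complex that takes part in the repair of DNA interstrand crosslinks, and no treatment, age or sex is given in the labels. Libraries carry replicate numbers from 2 to 7 in both genotypes and are named here by label and number, for example KO 3.

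The respiratory chain passes electrons from NADH (through complex I) or succinate (through complex II) to ubiquinone, then through complex III and cytochrome c to oxygen at complex IV. Complexes I, III and IV pump protons across the inner membrane, and complex V, the ATP synthase, uses the gradient to make ATP. Quiescent hematopoietic stem cells are known to rely little on respiration, while their differentiating progeny rely on it more.

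The value of a gene in a library, called signal here, is an estimated read count divided by a scaling factor of that library, as deposited by the authors. Total signal was 1576081 to 2672915 per library, at an approximate depth of 1235109 to 2471417 reads. Fancg itself was at a signal of 4.76 to 24.1 in the libraries labelled WT and 4.46 to 14.5 in those labelled KO, so its level did not separate the labels. Gm18853, which separated the genotypes in the other libraries, went against the labels of replicate 3. It was at 19.2 in WT 3 and at most 0.0304 in the other WT libraries, and at 1.84e-05 in KO 3 and at least 15.1 in the other KO libraries. Lars2 took 15.6% to 19.0% of the signal in libraries numbered 2 and 3 and 24.7% to 36.2% in those numbered 4 to 7. WT 3 and KO 7 were low in Y-linked transcripts. Among LSK markers, Kit was at 283 to 435 in every library, while Ly6a, which encodes Sca-1, was at 4.84 to 17.4. Flt3, a receptor of multipotent progenitors, had a log2 fold change of -0.51 (limma, unadjusted p = 0.0423) and Itga2b, a marker of megakaryocytes that some stem and progenitor cells also carry, of 0.72 (limma, unadjusted p = 0.00597). Flt3 was the only 1 of 9 tested LSK markers with an unadjusted limma p under 0.05, against 3.67% of all genes tested. Itga2b was the only megakaryocyte marker tested. Neither passed the adjustment over all genes tested. The 5 megakaryocyte markers summed to a signal of 15.8 to 56.1 in WT and 24.6 to 87.3 in KO, and none of the 8 erythroid markers reached the level needed for testing (summed signal 7.47 to 34.0 over all libraries). Ly6g, the defining marker of granulocytes, was at 0 in every library, while the 10 granulocyte and monocyte markers summed to 72.6 to 559 in WT and 109 to 582 in KO. The 7 B cell markers summed to 38.2 to 202 in WT and 55.3 to 299 in KO, and the 8 T and NK cell markers to 36.1 to 59.5 and 32.4 to 78.6. The part of these differences in the results below was not tested. Less RNA per cell and a smaller share of a cell type cannot be told apart in bulk libraries.

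Testing with limma was limited to genes that averaged a signal of 10 or more across all libraries and used log2(signal + 1), on which scale all fold changes of KO over WT are given. Of the 86 members, 71 were tested, namely 33 in complex I, all 4 in complex II, all 8 in complex III, 11 in complex IV, 14 in complex V and Cycs. The 15 others had a mean of at most 9.76. They comprised Ndufa1, Ndufa5, Ndufa11 and Ndufc1 of complex I, Atp5g2, Atp5k and Atp5s of complex V, and 8 genes of complex IV that are mostly tissue-restricted isoforms. Among these 8 is Cox6c2, which is annotated as a processed pseudogene and was counted by its name.

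No respiratory chain gene differed between genotypes after adjustment over the 8887 genes tested (smallest adjusted p of a member = 0.9996, limma with Benjamini-Hochberg adjustment). At an unadjusted limma p under 0.05, 4 of 71 members were called, or 5.63%, against 3.67% of all genes tested (326 of 8887, of which 0 passed the adjustment). Sdha of complex II was higher in KO, and Ndufa8, Ndufa3 and Ndufs6 of complex I were lower. In the same data 1.98% of all genes were called higher (176) and 1.69% lower (150). Scaling all libraries to the same total gave 191 higher and 50 lower and moved the median of all genes by about as much as that of the members, from 0.003 to 0.08 and from -0.04 to 0.04. The member with the smallest p ranked 135 among all genes. In no member were all KO libraries on one side of all WT libraries, which held for 8 of all genes tested (0.09%).

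The median log2 fold change of the 71 members was -0.04, with 28 above 0 and 43 below 0, while 50.7% of all genes tested were above 0 and their median was 0.003. By complex, the median was -0.03 for complex I, -0.21 for complex II, -0.04 for complex III, -0.04 for complex IV and 0.07 for complex V, and the value of Cycs was 0.39. Of the 71 fold changes, 67 were smaller than 0.5 in size, and the 95% confidence interval lay within 1 of 0 on either side for 65. The interval of a typical member extended 0.50 to either side of its fold change, and that of a typical tested gene extended 0.51.

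**Figure D1:**
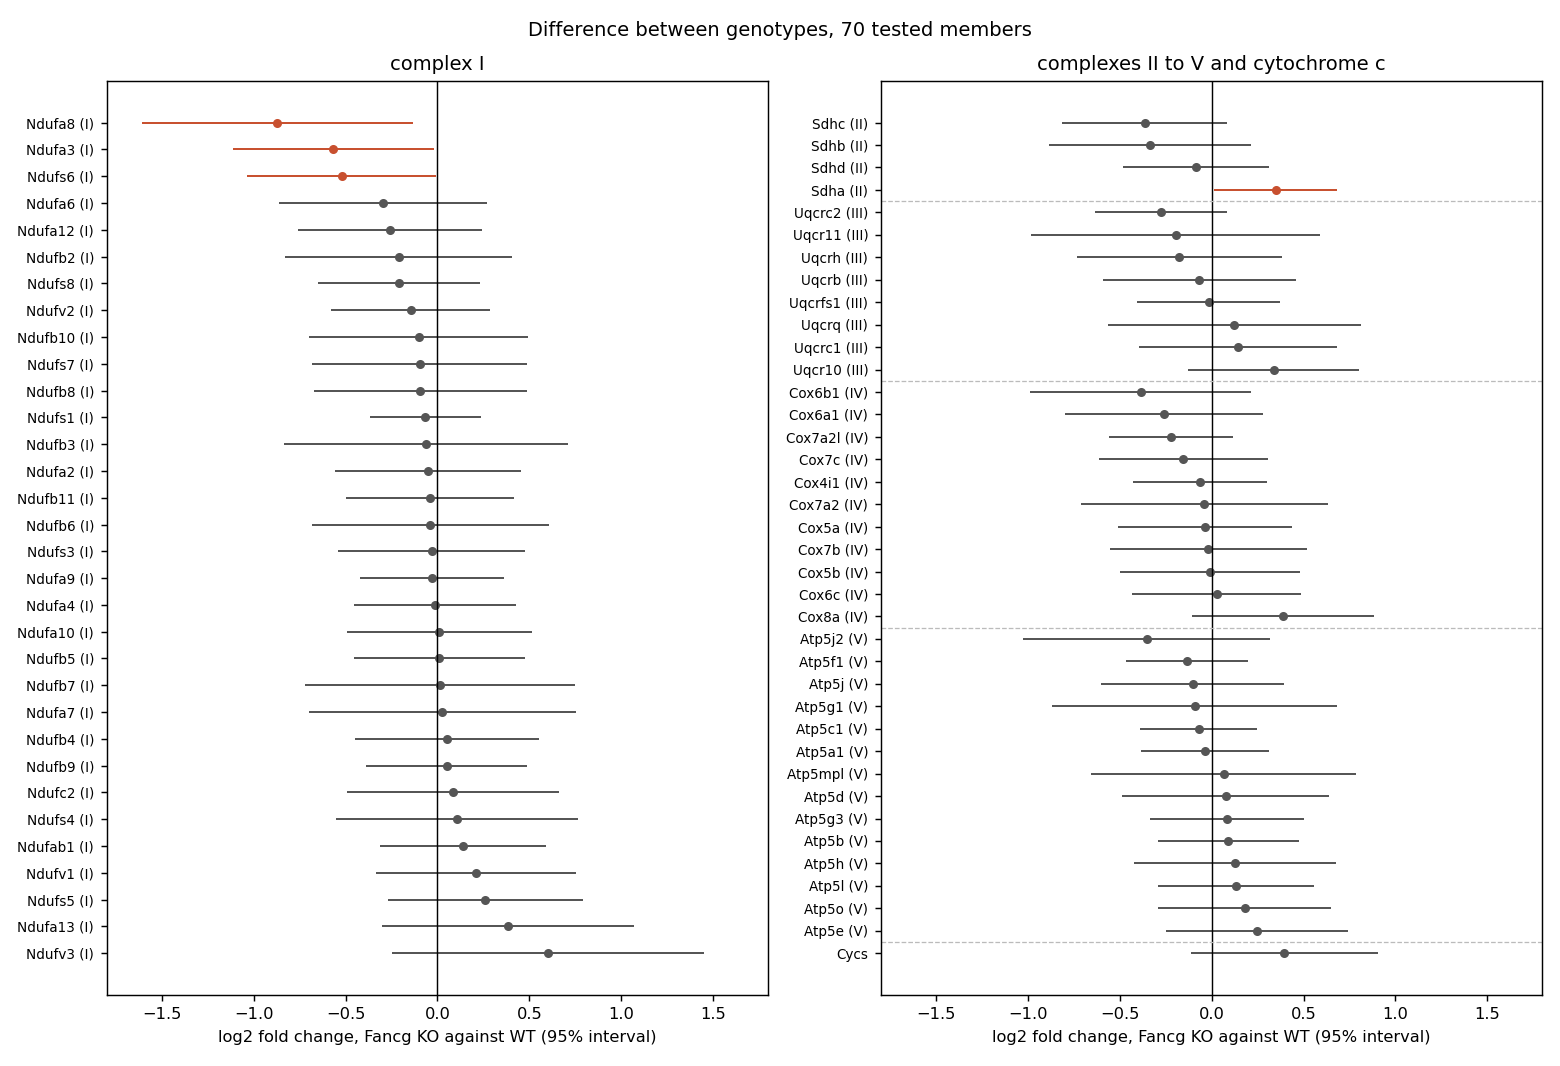
Log2 fold change of Fancg KO over WT on the log2(signal + 1) scale for 70 of the 71 tested members (points) with its 95% confidence interval from limma (lines), complex I on the left and complexes II to V with cytochrome c on the right, n = 6 libraries per genotype. Orange marks the 4 members with an unadjusted p under 0.05; the intervals of the other members shown include 0.

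As a mean over the tested members of a complex, the levels of WT and KO libraries overlapped in every complex. Complex I was at a mean log2 signal of 4.65 ± 0.18 (SD, n = 6) in WT and 4.60 ± 0.27 (SD, n = 6) in KO. Complex II was at 5.30 ± 0.25 in WT and 5.19 ± 0.23 in KO. Complex III was at 4.76 ± 0.16 and 4.74 ± 0.38, complex IV at 5.82 ± 0.15 and 5.75 ± 0.24, and complex V at 5.77 ± 0.26 and 5.78 ± 0.32. Each of these differences was smaller than the SD of either genotype.

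The complexes varied together between libraries. KO 3 had the lowest mean for complexes I, II, III and V and KO 2 for complex IV, and WT 6 had the highest for complexes I, II, IV and V. KO 2 or KO 3 held the lowest value of 36 of 71 members (50.7%), against 20.95% of all genes tested. The 4 libraries numbered 2 and 3, of both genotypes, held the lowest value of 48 members (67.6%, against 37.9% of all genes) and the highest value of 4 members (5.63%, against 28.6%). WT 6, KO 6 and KO 7 held the highest value of 51 members (71.8%, against 36.5%). They were also the libraries of lowest approximate depth, at 1441168, 1389866 and 1235109 reads. WT 7 was next in depth, at 1484206 reads, and held the highest value of 1 member. The part of depth in these shares was not tested. The libraries singled out here were picked after their values were seen, and the shares are given as a description.

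The difference between genotypes in the mean level depended on which numbers were compared. Within the libraries numbered 2 and 3, KO minus WT was -0.28 for complex I, -0.20 for complex II, -0.24 for complex III, -0.19 for complex IV and -0.10 for complex V. Within those numbered 4 to 7 it was 0.06, -0.07, 0.10, -0.01 and 0.07. The first set has only 2 libraries per genotype and includes both libraries numbered 3, whose labels Gm18853 goes against. Without both libraries numbered 3, the median log2 fold change of the 71 members was 0.0002. Leaving out WT 6, KO 2 or KO 3 alone moved the median log2 fold change of the 71 members from -0.04 to 0.05, 0.04 and 0.02. The direction of the small shift of the members as a group therefore rested on single libraries.

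**Figure D2:**
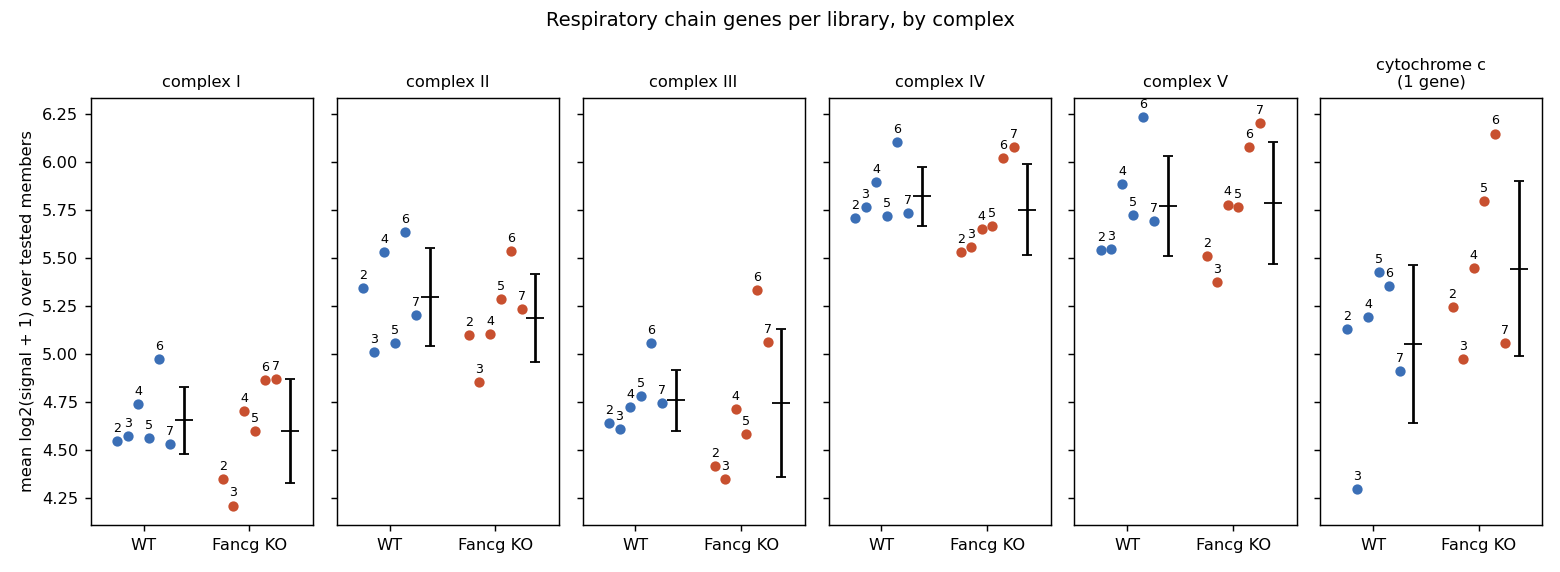
Mean log2(signal + 1) over the tested members of each complex in each library (points, labelled with the replicate number; blue WT, orange Fancg KO), with the mean and SD of the 6 libraries of a genotype (black). KO 2 and KO 3 lie at the bottom and WT 6, KO 6 and KO 7 at the top in most panels, and the genotypes overlap in every panel.

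Complex II, succinate dehydrogenase, consists of 4 subunits that are all encoded in the nucleus. Sdha is the flavoprotein that oxidizes succinate, Sdhb carries the iron-sulfur clusters, and Sdhc and Sdhd anchor the enzyme in the membrane and bind ubiquinone. Sdha (chromosome 13, 74322254 to 74350280 on the minus strand of GRCm38) had a signal of 20.6 at the lowest, 28.4 at the median and 30.6 at the highest in WT and of 29.4, 34.7 and 37.1 in KO. All KO libraries except KO 4 lay above the highest WT library. Signals of the other genes are given in the same order of lowest, median and highest library. The log2 fold change was 0.35 (95% interval 0.02 to 0.68, limma unadjusted p = 0.0389, two-sided exact permutation p = 0.00649, n = 6 per genotype).

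The other subunits of complex II had values below 0. Sdhc was at 16.2, 28.3 and 37.6 in WT and at 17.6, 19.8 and 23.8 in KO (log2 fold change -0.36, interval -0.81 to 0.08, limma unadjusted p = 0.101). WT libraries ranged widely around the narrow range of KO. Sdhb was at 35.7, 55.9 and 75.2 in WT and at 24.7, 42.0 and 69.5 in KO (log2 fold change -0.33, interval -0.88 to 0.21). Sdhd was at 46.1, 55.7 and 71.5 in WT and at 39.9, 50.7 and 73.8 in KO (log2 fold change -0.09, interval -0.48 to 0.31). The signal of Sdha over that of Sdhc was 0.746 to 1.89 (median 0.938) in WT and 1.40 to 2.02 (median 1.68) in KO. Over Sdhb the ratio was 0.378 to 0.645 (median 0.516) in WT and 0.521 to 1.37 (median 0.789) in KO. These ratios were computed after the values had been seen and overlap between genotypes.

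The call of Sdha lay near the threshold and was lost when single libraries were left out, while its fold change stayed above 0. It ended without any 1 of KO 2, KO 3, KO 5, KO 6, KO 7, WT 3 and WT 5 (limma unadjusted p from 0.0533 to 0.0934), with a log2 fold change of 0.28 to 0.39 over the 12 libraries left out in turn. Without WT 3 and KO 7, the libraries low in Y-linked transcripts, the value was 0.27 (limma unadjusted p = 0.126). Within libraries numbered 2 and 3 alone it was 0.52 and within those numbered 4 to 7 it was 0.26.

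Complex I, the NADH dehydrogenase, has a set of core subunits that carry out electron transfer and many accessory subunits. The 6 nuclear-encoded core subunits Ndufs1, Ndufs3, Ndufs7, Ndufs8, Ndufv1 and Ndufv2 had log2 fold changes between -0.21 and 0.21, and 0 of them were called. Ndufs1, the large iron-sulfur subunit, had the narrowest interval of these, at 34.4, 42.3 and 43.2 in WT and 32.5, 39.4 and 41.2 in KO (log2 fold change -0.07, interval -0.36 to 0.23). Ndufv1, which binds NADH, was at 25.9, 32.3 and 42.5 in WT and 24.3, 36.3 and 74.5 in KO (log2 fold change 0.21, interval -0.33 to 0.75).

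The 3 called members of complex I are accessory or peripheral subunits. Ndufa8 (chromosome 2, 36036326 to 36049406, minus strand), an intermembrane-space subunit with twin cysteine motifs, was at 18.1, 23.5 and 35.1 in WT and at 5.02, 14.9 and 25.7 in KO. The low end of KO came from KO 3 and KO 4, and KO 2 and KO 7 lay within the WT range. The log2 fold change was -0.87 (interval -1.60 to -0.14, limma unadjusted p = 0.0227, two-sided exact permutation p = 0.0368).

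Ndufa3 (chromosome 7, 3617373 to 3620327, plus strand), a small membrane subunit, was at 14.9, 17.4 and 27.6 in WT and at 6.05, 13.2 and 19.0 in KO. All KO libraries except KO 4 lay below the lowest WT library. The log2 fold change was -0.57 (interval -1.11 to -0.02, limma unadjusted p = 0.0420, two-sided exact permutation p = 0.0216).

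Ndufs6 (chromosome 13, 73319838 to 73328542, minus strand), a zinc-binding subunit of the peripheral arm, was at 14.6, 18.9 and 23.8 in WT and at 8.08, 12.5 and 19.5 in KO. The genotypes overlapped through KO 6 and KO 7 on one side and WT 2, WT 3 and WT 7 on the other. The log2 fold change was -0.52 (interval -1.03 to -0.01, limma unadjusted p = 0.0454, two-sided exact permutation p = 0.0346). Of its transcript stretches of 31 bases, 15.1% also occur in Ndufs6b, whose signal was 0, and Sdha, Ndufa8 and Ndufa3 share none with another gene.

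These 3 calls were also lost when single libraries were left out, while the fold changes stayed below 0. The call of Ndufa8 ended without KO 3, KO 4 or WT 6 (limma unadjusted p from 0.0537 to 0.0578), where the log2 fold change ran from -1.07 to -0.64 over the libraries left out in turn. That of Ndufa3 ended without KO 2, KO 3, KO 6, WT 2, WT 4, WT 5 or WT 6 (limma unadjusted p from 0.0508 to 0.103, log2 fold change -0.68 to -0.38). That of Ndufs6 ended without KO 2, KO 3, KO 4, KO 5, WT 4, WT 5 or WT 6 (limma unadjusted p from 0.0566 to 0.103, log2 fold change -0.64 to -0.40). Without both libraries numbered 3, whose labels Gm18853 goes against, the log2 fold changes were -0.58 for Ndufa8, -0.60 for Ndufa3, -0.56 for Ndufs6 and 0.28 for Sdha, and 0 of the 4 calls held (limma unadjusted p from 0.0581 to 0.117).

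The depth behind these genes is small. A library held about 6.00 to 33.0 reads of Ndufa8, 5.61 to 26.2 of Ndufa3, 9.19 to 33.3 of Ndufs6 and 17.9 to 40.6 of Sdha, so counting error is a part of the spread between libraries. On the other side of complex I, Ndufv3 had the largest value above 0 (log2 fold change 0.60, interval -0.24 to 1.44), at 2.83, 16.8 and 18.4 in WT and 9.66, 20.6 and 30.8 in KO. Its interval includes 0, and without WT 7, the lowest WT library, the value was 0.25. It was -0.22 within libraries numbered 2 and 3 and 1.01 within those numbered 4 to 7.

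**Figure D3:**
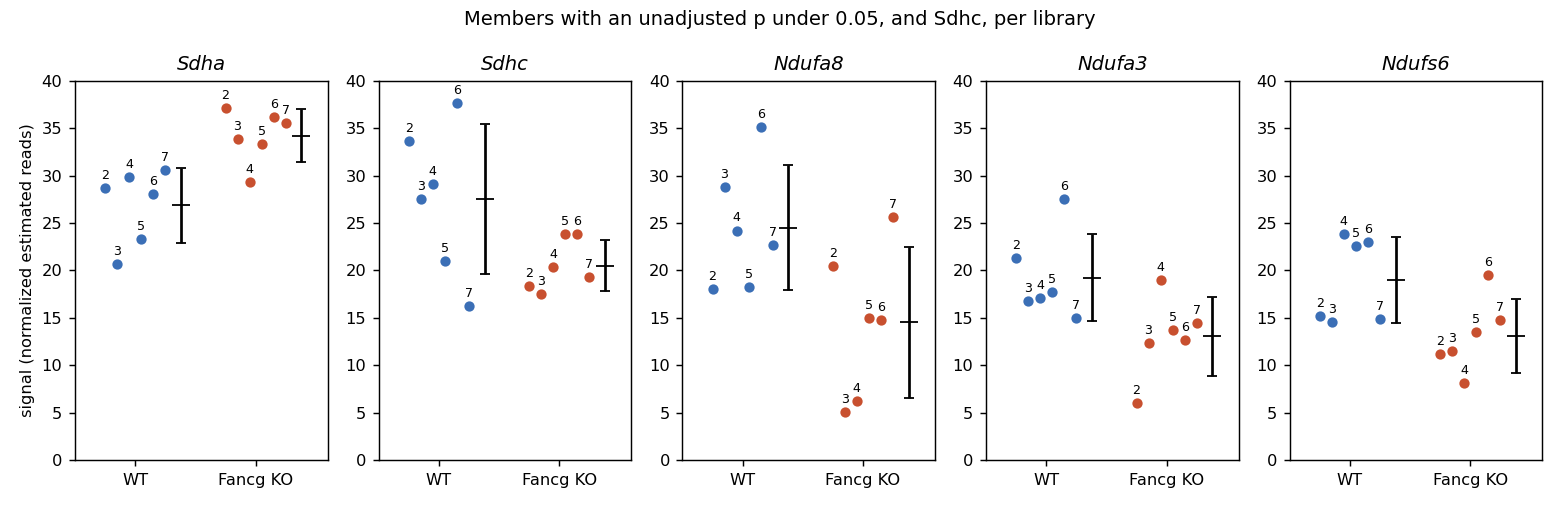
Signal in each library (points, labelled with the replicate number; blue WT, orange Fancg KO) of the 4 members with an unadjusted p under 0.05 and of Sdhc, with the mean and SD of 6 libraries (black) and axes from 0. Sdha is mostly higher and Ndufa8, Ndufa3 and Ndufs6 mostly lower in KO, and at least 1 library of each genotype lies within the range of the other in every panel.

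The promoters of the 4 called genes and of Cycs are shown because the factors NRF1, YY1 and the ETS family member GABP are known regulators of respiratory chain genes. The letters are RefSeq sequence of GRCm38.p6 from 250 bases before to 50 bases after the annotated start, 5′ to 3′ on the strand of the gene, and capitals mark a match to one of the searched motifs on either strand. They cover chr13:74350191-74350490 (Sdha), chr2:36049289-36049588 (Ndufa8), chr7:3617123-3617422 (Ndufa3, the only one on the plus strand), chr13:73328433-73328732 (Ndufs6) and chr6:50566520-50566819 (Cycs).
Sdha: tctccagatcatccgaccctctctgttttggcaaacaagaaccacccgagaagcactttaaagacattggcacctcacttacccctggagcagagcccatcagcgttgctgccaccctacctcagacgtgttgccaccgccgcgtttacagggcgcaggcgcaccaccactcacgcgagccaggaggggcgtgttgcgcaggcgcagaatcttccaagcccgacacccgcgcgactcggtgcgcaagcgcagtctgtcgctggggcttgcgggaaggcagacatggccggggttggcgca
Ndufa8: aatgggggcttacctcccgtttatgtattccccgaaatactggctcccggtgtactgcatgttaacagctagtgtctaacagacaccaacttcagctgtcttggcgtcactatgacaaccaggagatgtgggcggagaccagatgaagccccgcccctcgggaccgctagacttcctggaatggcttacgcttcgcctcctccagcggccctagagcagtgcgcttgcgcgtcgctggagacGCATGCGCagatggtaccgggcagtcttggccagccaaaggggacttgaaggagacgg
Ndufa3: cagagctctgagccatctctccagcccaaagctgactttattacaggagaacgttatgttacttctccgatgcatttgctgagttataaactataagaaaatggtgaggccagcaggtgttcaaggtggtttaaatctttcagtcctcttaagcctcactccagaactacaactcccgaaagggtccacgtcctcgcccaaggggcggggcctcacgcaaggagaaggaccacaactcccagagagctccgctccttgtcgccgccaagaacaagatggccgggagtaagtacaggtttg
Ndufs6: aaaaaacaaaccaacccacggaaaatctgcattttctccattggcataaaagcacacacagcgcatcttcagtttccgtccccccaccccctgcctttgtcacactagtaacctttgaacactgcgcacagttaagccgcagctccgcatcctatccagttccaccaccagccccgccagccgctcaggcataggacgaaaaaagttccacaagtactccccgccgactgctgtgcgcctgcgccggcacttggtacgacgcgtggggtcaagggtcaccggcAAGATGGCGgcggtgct
Cycs: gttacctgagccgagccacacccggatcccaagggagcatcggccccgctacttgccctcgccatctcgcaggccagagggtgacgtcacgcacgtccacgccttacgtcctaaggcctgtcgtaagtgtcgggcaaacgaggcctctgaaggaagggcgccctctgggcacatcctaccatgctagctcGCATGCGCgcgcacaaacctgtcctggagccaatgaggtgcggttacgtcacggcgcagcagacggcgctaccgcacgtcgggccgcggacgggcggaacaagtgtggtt

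The letters searched were GCATGCGC for NRF1, CCGGAAG for the ETS family and AAGATGGCG for YY1, and no matches to different motifs overlapped in a member. Ndufa8 and Cycs hold the NRF1 letters and Ndufs6 holds those of YY1, while none of the searched letters occurs in the windows of Sdha and Ndufa3. Of the 56 tested members with a RefSeq promoter, 8 held the NRF1 letters (14.3%), 14 those of the ETS family (25.0%) and 5 those of YY1 (8.93%). Among the promoters of the 6903 coding genes tested, the shares were 6.24%, 21.1% and 3.82%. For these genes the first listed promoter was used, while for members the promoter nearest to the GENCODE start was used. The windows of both sets were therefore not chosen alike, and the difference in shares was not tested. Among the tested members, the YY1 letters occurred in Ndufa9, Ndufs4, Ndufs6 and Ndufs7 of complex I and in Atp5j2 of complex V. They also occurred in Ndufc1 of complex I, which was not tested. A match describes the sequence and not the binding of a factor.

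In complex III, the cytochrome bc1 complex, 0 of 8 members were called. Uqcrc2, a core protein, was nearest to the threshold below 0, at 35.1, 44.4 and 55.7 in WT and 25.9, 35.8 and 41.5 in KO (log2 fold change -0.28, interval -0.63 to 0.08, limma unadjusted p = 0.119). Uqcr10, a small subunit, was nearest above 0, at 12.7, 15.7 and 25.4 in WT and 13.7, 22.3 and 25.7 in KO (log2 fold change 0.34, interval -0.12 to 0.80, limma unadjusted p = 0.140). Without WT 4, the highest WT library, the value of Uqcr10 was 0.46 (limma unadjusted p = 0.0473). This was the only 1 of 27 alternative runs in which Uqcr10 passed the threshold. The other core protein Uqcrc1 was at a log2 fold change of 0.14 and the Rieske iron-sulfur protein Uqcrfs1 at -0.02.

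Cycs, the electron carrier between complexes III and IV and also a trigger of apoptosis when released from mitochondria, was at 18.6, 34.7 and 42.0 in WT and at 30.4, 39.8 and 69.9 in KO. WT 3 was the lowest and KO 6 the highest library. The log2 fold change was 0.39 (interval -0.11 to 0.90, limma unadjusted p = 0.115), with 0.40 within libraries numbered 2 and 3 and 0.39 within those numbered 4 to 7. Of its transcript stretches of 31 bases, 26.2% also occur in Gm10053, which was at 41.5, 62.5 and 83.2 in WT and 38.2, 51.8 and 98.0 in KO. For the sum of both genes the log2 fold change was 0.03. The part of reads shared between both genes in the value of Cycs was not tested.

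In complex IV, cytochrome c oxidase, 0 of 11 tested members were called, and 9 of them were below 0. Cox8a was nearest to the threshold above 0, at 14.5, 32.5 and 38.2 in WT and 30.3, 36.2 and 51.9 in KO (log2 fold change 0.39, interval -0.10 to 0.88, limma unadjusted p = 0.113). Cox7a2l, known for its part in joining complexes III and IV into supercomplexes, was nearest below 0, at 82.5, 98.7 and 112 in WT and 58.9, 85.2 and 114 in KO (log2 fold change -0.22, interval -0.55 to 0.11, limma unadjusted p = 0.178).

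Levels of different genes were compared per kilobase of the longest coding transcript. The widely expressed isoforms of complex IV were detected and their tissue-restricted relatives were low. Cox4i1 was at a mean signal of 103 per kb and Cox4i2, an isoform known from lung, at 0.560. Cox6a1 was at 39.2 and its heart and muscle isoform Cox6a2 at 2.39. Cox7a2, described below, was at 2518, the related Cox7a2l at 80.8 and the heart and muscle isoform Cox7a1 at 0.991. Cox8a was at 63.3 and the heart and muscle isoform Cox8b at 0.517, and Cox8c was at 0 in every library. Cox7b was at 31.9 and Cox7b2 at 0.351. Cox6b1 and the testis isoform Cox6b2 were closest to each other, at 22.2 and 12.3.

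**Figure D4:**
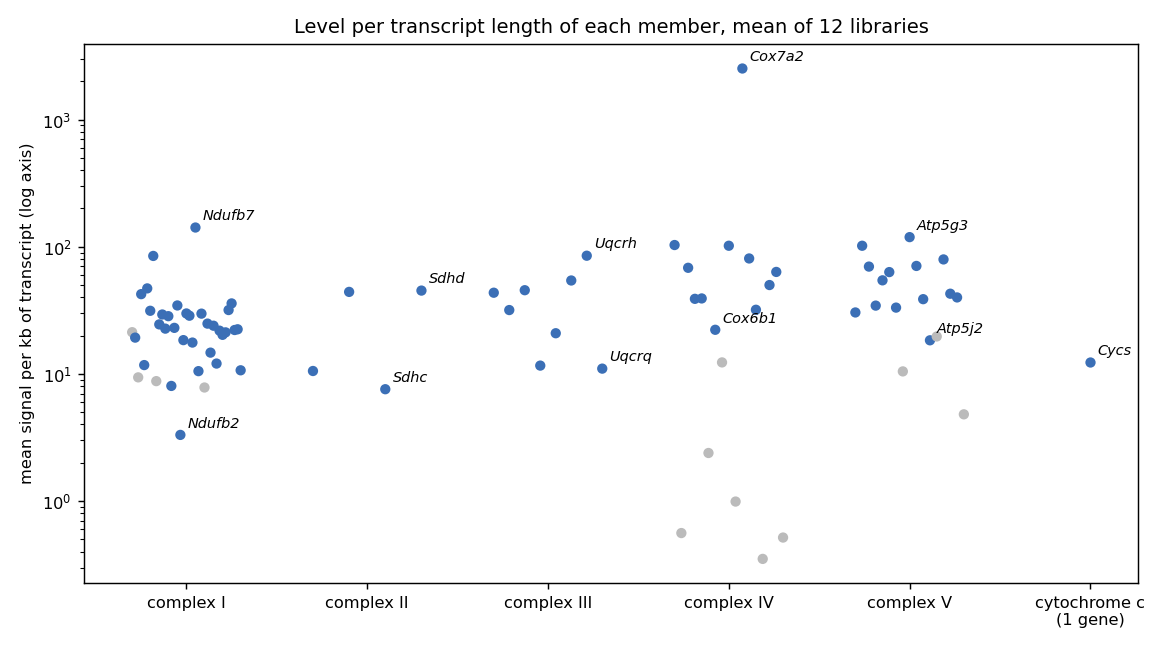
Mean signal over 12 libraries per kb of the longest coding transcript (log axis) for each member above 0, by complex; blue points were tested and grey points were below the minimum of 10. Named are the highest and lowest tested member of each complex; Cox7a2 stands alone at 2518 per kb, and the grey points at the bottom of complex IV are tissue-restricted isoforms.

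Cox7a2, the isoform of broad expression, stood apart from all other members at 2518 per kb. Its signal was 984, 1257 and 2885 in WT and 729, 1711 and 2255 in KO (log2 fold change -0.04, interval -0.71 to 0.63), and it made up 55.8% to 87.2% of the signal of complex IV. WT 2, WT 3 and KO 2 were the highest libraries. Olfr907, an olfactory receptor gene, had a signal of 62986 to 251970 and ranked the libraries in a similar order, with 10.8 to 18.8 units of Cox7a2 for each 1000 units of Olfr907. The part of this relation in the values of Cox7a2 was not tested. Because of this weight, complex IV is described above as a mean of log2 values and not as a sum, and its median without Cox7a2 was -0.05, against -0.04 with it.

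**Figure D5:**
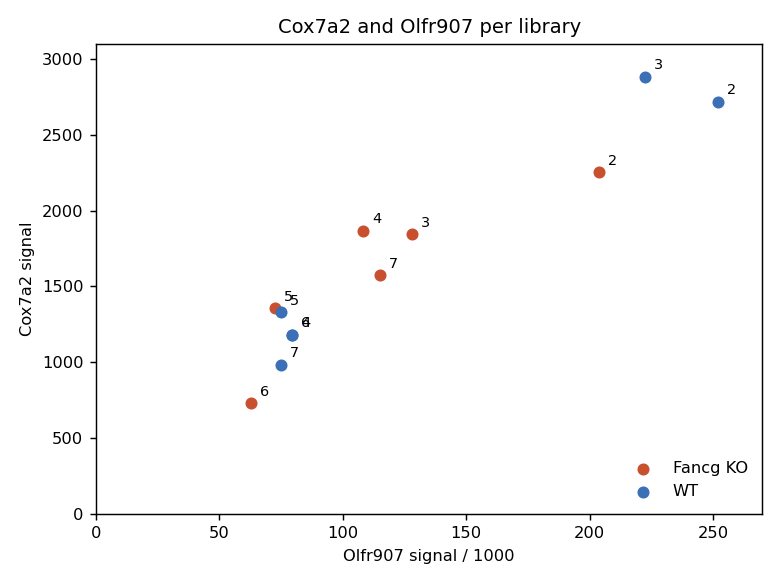
Signal of Cox7a2 against signal of Olfr907 divided by 1000, 1 point per library labelled with its replicate number (blue WT, orange Fancg KO; the points of WT 4 and WT 6 coincide). Libraries high in one are high in the other in both genotypes, and the genotypes overlap on both axes.

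In complex V, 0 of 14 tested members were called. The F1 subunits Atp5a1 and Atp5b, of the head, and Atp5c1, of the central stalk, had log2 fold changes of -0.04, 0.09 and -0.07. Their intervals lay between -0.38 and 0.47. Atp5b, the subunit that makes ATP, was at 152, 179 and 260 in WT and 146, 195 and 278 in KO. The subunits Atp5e and Atp5j2 were nearest to the threshold on either side, at 0.25 (interval -0.24 to 0.73) and -0.35 (interval -1.02 to 0.31).

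The c-ring of complex V is made from an identical mature protein encoded by Atp5g1, Atp5g2 and Atp5g3. Per kb, Atp5g3 was highest at 119, followed by Atp5g1 at 33.2 and Atp5g2 at 10.5. The signal of Atp5g1 ran from 42.5 to 329 in WT and from 87.8 to 180 in KO. Of the stretches of Atp5g2, 37.5% also occur in Gm10175, which had a mean signal of 44.1, and the part of shared reads in the value of Atp5g2 was not tested. Over all members, 13 shared more than 20% of their stretches with another gene and 20 shared none.

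Among tested members, the highest per kb were Ndufb7 (142) in complex I, Sdhd (45.2) in complex II, Uqcrh (84.9) in complex III, Cox7a2 in complex IV and Atp5g3 in complex V. The lowest were Ndufb2 (3.31), Sdhc (7.58), Uqcrq (11.0), Cox6b1 (22.2) and Atp5j2 (18.4). The median member was at 23.0 per kb in complex I, 27.3 in complex II, 37.6 in complex III, 63.3 in complex IV and 48.5 in complex V, and Cycs was at 12.4. A gene whose mRNA in these cells is shorter than its longest annotated transcript would have a higher level than given. Reads of longer noncoding transcripts, if counted for a gene, would make its level lower than given. Ndufb7 has 1 coding transcript of 623 bases but 4520 different stretches of 31 bases over all its annotated transcripts.

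Of the 12 mtDNA-encoded partners tested, which are transcribed in the mitochondrion and join the nuclear-encoded subunits in complexes I, III, IV and V, mt-Co2 of complex IV was called higher, at 0.419, 49.5 and 361 in WT and 120, 313 and 683 in KO (log2 fold change 3.68, limma unadjusted p = 0.00878, adjusted p = 0.9996). The WT libraries differed widely among themselves, and both genotypes overlapped between 120 and 361. The other subunits did not pass, and 3.67% of all genes tested passed this threshold. The most negative values were those of mt-Nd3, at a log2 fold change of -1.002 with 1 KO library at 0, and mt-Co3, at -0.30, and mt-Co1 and mt-Cytb were at -0.05 and -0.04.

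The lists of assembly factors and regulators gave 2 calls, at a threshold passed by 3.67% of all genes tested. For complex I, 0 of 8 tested assembly factors were called, and Ndufaf1 was at -0.54 (limma unadjusted p = 0.0522). For complex II, 1 of 2 tested factors was called, Sdhaf3, which helps to mature the iron-sulfur subunit, at -1.15 (limma unadjusted p = 0.0195). The lists for complex III, IV and V had 0 of 5, 0 of 13 and 0 of 3 called, and the other electron donors to ubiquinone 0 of 5. Of 11 tested regulators, Polrmt, the mitochondrial RNA polymerase, was called higher at 0.70 (limma unadjusted p = 0.0484), and Nrf1, Yy1 and Gabpa, whose products bind DNA at the motifs above, and Gabpb1, which encodes the partner of the Gabpa product, were not called. After adjustment 0 genes of these lists passed (adjusted p = 0.9996).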

How the data were processed

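RNA-seq of LSK cells from 12 mice was used, with groups and replicate numbers from the labels. The deposited signal was made by the authors with kallisto, per the labels, and was taken from its values to be an estimated count divided by 1 factor per library; the mouse build and annotation are not given in the sources used here. All columns were used (0 left out). Whole reads could not be recovered (9.97% to 11.1% of values whole within 0.001), so depth is approximate and no count test was run.

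Genes averaging a signal of 10 or more were tested on log2(signal + 1) with limma 3.58.1 (trended empirical Bayes, two-sided, Benjamini-Hochberg over 8887 genes, R 4.3.3), without covariate, and with exact permutation tests (smallest possible p = 0.0022). The tests were checked on simulated data. A gene was named if its unadjusted p was under 0.05, if it had the smallest p in a direction or the highest or lowest level per kb in its complex, or if it was on a list of core subunits or isoforms; the ratios within complex II, Olfr907, Lars2, Gm18853 and the libraries singled out were chosen after values were seen. The members and lists were chosen with earlier results of these data known. Positions, transcript lengths and shared stretches of 31 bases came from GENCODE M21 (GRCm38), and 66 of 86 members matched a RefSeq promoter. Each mouse gave 1 library. Results of 1 member were kept in the counts and are not reported here.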

Additional observations from a re-analysis of the deposited data

Results flagged for a closer look

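In 7 of 98 groups of 6 libraries of the same genotype, 1 library stood far from the others. Chance would give about 4.9, but that number does not hold for groups with a single library above 0, which are flagged at any value. Ndufs7, a core subunit of complex I, was at 68.0 in KO 4 and at 17.6 to 36.2 in the other KO libraries. Uqcr10 of complex III was at 25.4 in WT 4 and at 12.7 to 17.0 in the other WT libraries.

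The remaining cases were isoforms of complex IV that were at 0 in the 5 other libraries of the genotype, so their flags were fixed by that. Cox7b2 and Cox8b reached about 1 read in a library at most, and Cox7a1 about 2.64. Cox7a1 was at 3.17 in WT 2, Cox7b2 at 0.677 in WT 5 and 1.61 in KO 7, and Cox8b at 1.15 in WT 3 and 1.08 in KO 2.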

How the results depend on the processing

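The median log2 fold change of each complex and of Cycs moved by less than the spread between libraries under every alternative run, and that of complex II stayed below 0 and that of Cycs above 0 in all of them. For the 71 members, the median was -0.21 with libraries numbered 2 and 3 alone, 0.07 with libraries numbered 4 to 7 alone and -0.13 without WT 3 and KO 7. The counts of calls were less stable. Against 4 members called, the count was 2 with the replicate block, 1 with the same total signal per library, with or without Lars2 in that total, 1 with libraries numbered 2 and 3 alone, and 0 with libraries numbered 4 to 7 alone, with libraries numbered 3 left out or with a mean of at least 50, where 15 members were left; it was 0 to 5 over the libraries left out in turn. Against 326 genes called, the count was 836 without a filter, 91 with a mean of at least 50, 124 with the same total without Lars2 and 275 to 383 over the libraries left out in turn. After adjustment 1 gene passed with libraries numbered 3 left out and 1 with libraries numbered 4 to 7 alone, against 0. Scaling to the same total moved the median of all genes from 0.003 to 0.08 and that of the members from -0.04 to 0.04, and 191 genes were then called higher and 50 lower, against 176 and 150; without Lars2 in the total these were 0.06, 0.02, 86 and 38. Ndufb7 was at -1.18 with libraries numbered 2 and 3 alone, against 0.01. The cause was not tested. The analyses of libraries numbered 2 and 3 or 4 to 7 and of complex IV without Cox7a2 were chosen after seeing the data.

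The labels do not say what the replicate numbers share, and the libraries were not treated as paired. The correlation of same-numbered libraries was 0.0862 to 0.362 (mean 0.196), over 0.1 in 4 of 6 pairs, and 9 of 12 libraries correlated best with their own number. With the replicate block, 476 genes and 2 members were called, namely Ndufa8 (limma unadjusted p = 0.0286) and Cycs (0.0326), while Sdha, Ndufa3 and Ndufs6 had p of 0.0588, 0.0623 and 0.0558.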
